A study of Arabidopsis thaliana with 4 samples.

Results

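SPCH (SPEECHLESS, AT5G53210) and TRY (TRIPTYCHON, AT5G53200) are regulators of cell fate in the shoot epidermis of Arabidopsis thaliana, SPCH for stomata and TRY for trichomes, the leaf hairs. Both genes were selected by name, with earlier results of these data known. Each was taken by its brightest probe set among those paired with 1 gene. Each of these 2 genes, of 13286 genes with such a probe set, had 1 probe set. Transcripts were measured in dissected shoot apices of wild-type Col-0 plants, in 2 groups of 2 samples with 1 array each. The group called SD30_LD7 had 30 short days and then 7 long days, which promote flowering. The group called SD30 had the 30 short days alone. The shifted plants were also 7 days older, so day length and age cannot be told apart, and the hour of harvest is unknown here. The labels do not state whether replicates were grown as separate plantings. The p-values therefore reflect the spread among these arrays, part or all of which may be technical.

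The shoot epidermis starts as a single cell layer, the protoderm, whose cells become pavement cells, stomatal guard cells or trichomes. SPCH is a basic helix-loop-helix transcription factor that starts the stomatal lineage by driving the asymmetric entry divisions. The related factors MUTE and FMA (FAMA) then act at later steps, and secreted peptides with their receptors adjust SPCH activity through a MAP kinase cascade. TRY is a small MYB protein with a single repeat and no activation domain. It moves from a young trichome into its neighbours and there competes with the activating MYB protein for its basic helix-loop-helix partner, which keeps trichomes apart.

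Values are intensities as the authors scaled them, on a linear scale. Array medians were 207 and 211 for SD30_LD7 and 214 and 220.5 for SD30, and arrays of 1 group correlated at 0.985 to 0.987 across 15922 probe sets, against 0.942 to 0.948 between groups. The actin control, whose 3' to 5' signal ratio reports on RNA integrity, had ratios of 8.27 and 4.64 for SD30_LD7 and of 6.51 and 5.72 for SD30. By actin the SD30_LD7 arrays lay on both sides of the SD30 arrays. The same held for the GAPDH control, at 2.65 and 1.57 against 1.78 and 2.05. It did not hold for the ubiquitin control, at 3.27 and 2.36 for SD30_LD7 and 3.15 and 3.44 for SD30. These ratios thus differed between arrays, and RNA integrity itself was not measured here. The meristem genes CLV3 and ULT1 were measured on all 4 arrays above 23.5, the floor set on low intensities, with CLV3 at 72.6 and 87.9 in SD30_LD7 and 72.9 and 103.5 in SD30. The root hair gene EXPA7 was too dim to test, at 5.5 and 12.1 in SD30_LD7 and 44.6 and 24.7 in SD30. Its SD30 values lay above the floor. EXPA7 was the 1 gene with a probe set of 6 root genes listed, and CLV3 and ULT1 were 2 of 7 meristem genes.

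The question put to both genes was whether their transcript levels differ between SD30_LD7 apices and the younger SD30 apices. No group was kept in short days to the age of SD30_LD7, so a difference does not separate the shift from age. SPCH was lower in SD30_LD7, by 32.5% relative to SD30, while no difference of TRY passed the test. SPCH had intensities of 251.9 and 272.2 on the SD30_LD7 arrays, against 418.6 and 359.5 on the SD30 arrays. Both shifted arrays lay below both short day arrays, and the spread within SD30 was the wider of the 2 groups. The means were 262 ± 14.4 in SD30_LD7 and 389 ± 41.8 in SD30 (SD, n = 2 each). The log2 difference, SD30_LD7 minus SD30, was -0.57 ± 0.15 (SE, limma adjusted p = 0.026 over all 15922 probe sets tested), a fold of 0.675 with an unadjusted 95% interval of 0.536 to 0.849. Across the 4 pairings of a shifted with a short day array, the difference of SPCH ran from -0.73 to -0.40. The size of the SPCH difference was therefore below 2-fold throughout its interval.

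The SPCH call rests on all 4 arrays together. Without SD30_LD7 replicate 1 the adjusted p was 0.15, without SD30_LD7 replicate 2 it was 0.089, without SD30 replicate 1 it was 0.20 and without SD30 replicate 2 it was 0.078. The difference was -0.51, -0.62, -0.46 and -0.68 in that order. Its sign could not turn in these fits, because the groups did not overlap. In bulk tissue, fewer cells of a type and less RNA per cell cannot be told apart, so a lower SPCH intensity does not separate fewer lineage cells from lower expression in each.

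TRY had intensities of 181.3 and 167.7 on the SD30_LD7 arrays, against 153.2 and 136.3 on the SD30 arrays. The groups did not overlap here either, with both shifted arrays above both short day arrays. The means were 174.5 ± 9.62 in SD30_LD7 and 145 ± 12.0 in SD30 (SD, n = 2 each). The log2 difference was 0.27 ± 0.20 (SE, limma adjusted p = 0.44), a fold of 1.21 with a 95% interval of 0.896 to 1.63. The interval holds falls to a fold of 0.896, no difference and rises of up to 1.63-fold. No small fall, unchanged level or modest rise was therefore shown. Single pairings of arrays gave 0.13 to 0.41.

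**Figure D1:**
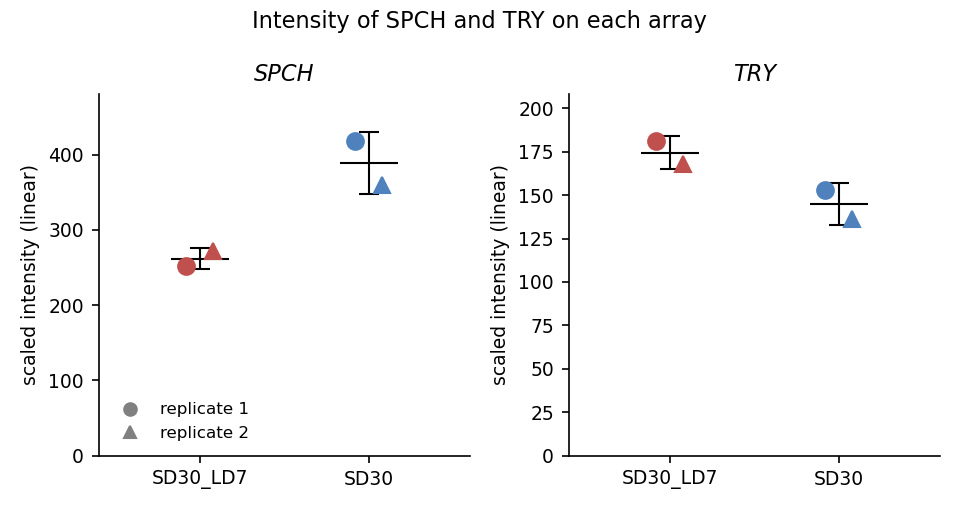
Scaled linear intensity (y axis, from 0) of SPCH (left panel) and TRY (right panel) in SD30_LD7 and SD30 apices, with circles for replicate 1, triangles for replicate 2, and black lines for the mean ± SD (n = 2). SPCH averaged 262 in SD30_LD7 and 389 in SD30, TRY 174.5 in SD30_LD7 and 145 in SD30, and neither gene has overlapping groups.

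Groups that do not overlap are common here. Of all 15922 probe sets tested, 27.6% had both SD30_LD7 arrays above both SD30 arrays and 26.9% had them below, 54.5% in all. The share called at an adjusted p below 0.05 was 15.0% in all, 6.80% as higher in SD30_LD7 and 8.20% as lower. Against that background SPCH was called lower and TRY was not called, and SPCH ranked 1815th of the 15922 by p-value. Its difference was lower than that of all but 9.09% of probe sets, whereas 84.0% of probe sets had a difference below that of TRY.

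Brightness bears on the precision of both genes. SPCH, with a higher intensity than 39.9% of the probe sets tested, had 3307 probe sets within 0.5 log2 units of its mean level, and 87.4% of them had a smaller difference in size. TRY was dimmer, above 22.5% of probe sets, and 52.9% of the 2225 probe sets near its level had a smaller difference. The model draws the spread of each probe set towards that of others of like intensity. For TRY this raised the SD on the log2 scale to 0.20, against 0.10 from its own replicates, and for SPCH to 0.15, against 0.12. When the model used no intensity trend, the adjusted p of TRY was 0.29 and that of SPCH was 0.065, which ended the SPCH call.

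**Figure D2:**
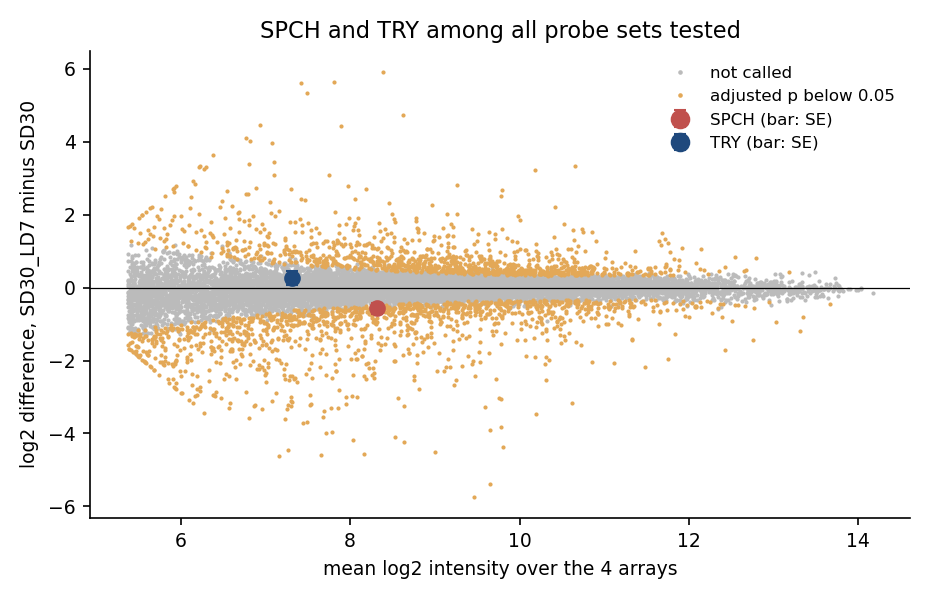
Mean log2 intensity over the 4 arrays (x axis) and log2 difference, SD30_LD7 minus SD30 (y axis), of the 15922 probe sets tested, with called ones in orange and others in grey, and SPCH and TRY as large points with the SE. SPCH at -0.57 lies at the lower edge of the uncalled probe sets, and TRY at 0.27 lies among them.

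The estimates for SPCH and TRY had opposite signs, although no rise of TRY was shown. Their contrast, SPCH minus TRY, was -0.84 on the log2 scale. An exact two-sided permutation test over the 4 samples gave p = 0.333 for this contrast, the smallest value that 2 samples against 2 allow. This permutation test could therefore not pass the threshold whatever the values were, and no other test of the contrast was run. Under 12 alternatives in the processing that kept both genes, the contrast lay between -0.95 and -0.73. Several of these could not move it from -0.84, whatever the values of other probe sets. Those were the replicate number as a block, median centring, the other floors, no filter on dim probe sets and no intensity trend. Its size could change with 1 array left out, with quantile normalization or with a pseudocount.

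TRY and SPCH are direct neighbours on chromosome 5, with 0 annotated genes between them in the TAIR10.1 gene table. Of the 10 annotated genes on each side, 6 of 20 had a probe set of their own and 4 were bright enough to test. Of these 4, 0 were called by limma and 1 had an unadjusted p below 0.05, against 15.0% and 26.7% of all probe sets, so with 4 genes neither count stands apart from the background. That gene was AT5G53140, with 1166 and 1218 in SD30_LD7 against 1070.5 and 918.2 in SD30 (log2 difference 0.27 ± 0.11, adjusted p = 0.15, or 0.15 on the log2 scale without SD30 replicate 2). AT5G53220, the next gene on the SPCH side, had 135.8 and 146.9 in SD30_LD7 against 170.3 and 159.2 in SD30. Its log2 difference was -0.22 ± 0.20 and did not pass (adjusted p = 0.54). SWEET3, a sugar transporter family gene that is the next on the TRY side, was too dim to test, at 41.2 and 5.8 in SD30_LD7 and 21.2 and 46.8 in SD30. AT5G53150 and AT5G53310 had log2 differences of -0.00 and -0.07, and AT5G53240 was at or below 3.2 on every array.

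**Figure D3:**
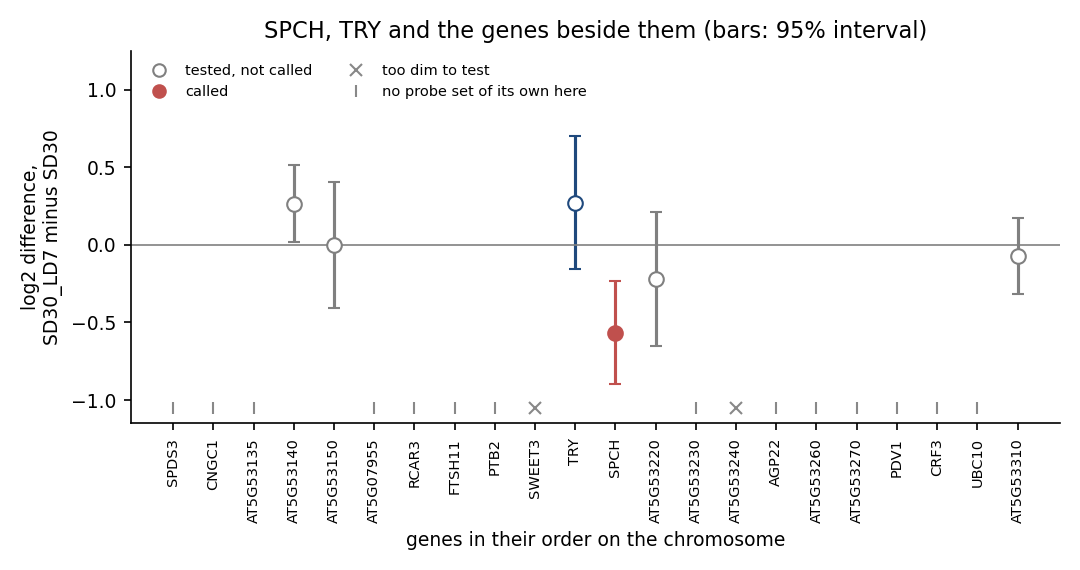
Log2 difference, SD30_LD7 minus SD30 (y axis), of TRY, SPCH and the 10 annotated genes on each side in chromosome order (x axis), with 95% intervals and a filled point for a call; crosses and ticks at the bottom mark genes too dim to test or without a probe set of their own here. SPCH at -0.57 is the called gene, and the 4 tested neighbours lie between -0.22 and 0.27.

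Around the pair, 80 genes of stomata, guard cells, trichomes and protoderm were listed. Of these, 13 had a probe set of their own and 12 were bright enough to test. SPCH and SIM fell, 0 rose, and 10 did not pass. Relative to the 8.20% of all probe sets called lower, this is 2 of 12 with SPCH and 1 of 10 among the genes other than SPCH and TRY. At an unadjusted limma p below 0.05, 1 was higher and 3 were lower, against 12.9% and 13.8% of all probe sets. These few genes do not set the lists apart from the background. The median log2 difference of the 12 was 0.04, and that of all probe sets was -0.00. The groups did not overlap for 9 of the 12, against 54.5% of all probe sets.

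Of the 27 genes of the stomatal lineage list, 4 had a probe set of their own. The receptors, the MAP kinases and the partner factors of SPCH were not analysed here. STOMAGEN, the gene of a secreted peptide that is made in the inner leaf tissue and promotes stomatal formation, had 229 and 135.7 in SD30_LD7, against 317.7 and 241.1 in SD30. Both shifted arrays lay below both short day arrays, with a wide spread inside each group. Its log2 difference of -0.65 ± 0.24 did not pass (adjusted p = 0.099). The size depended on single arrays, at -0.27 without SD30_LD7 replicate 2 (adjusted p = 0.57) and -1.03 without SD30_LD7 replicate 1 (adjusted p = 0.028). With the replicate number as a block the difference of -0.65 passed (adjusted p = 0.024). FMA, the regulator of the last division and of guard cell identity, had 63.4 and 80.4 in SD30_LD7, against 62.6 and 66.9 in SD30. These groups overlapped, and the log2 difference was 0.14 ± 0.29 (adjusted p = 0.82), with a 95% interval from -0.50 to 0.78, and it was -0.030 without SD30_LD7 replicate 2 and 0.31 without SD30_LD7 replicate 1.

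MUTE, which ends the divisions that SPCH starts, had 4.5 and 3.2 in SD30_LD7, against 23.3 and 13.1 in SD30. All 4 values lay below the floor of 23.5, so MUTE was too dim to test and no fold is given. Of the 7 guard cell genes, the 1 with a probe set was AT1G22690, with 51.7 and 21.3 in SD30_LD7 against 82.1 and 44.4 in SD30. The groups overlapped, and its log2 difference of -0.79 ± 0.45 had a 95% interval from -1.78 to 0.20 (adjusted p = 0.30). It rests on 1 value raised to the floor, that of 21.3, and leaving out SD30_LD7 replicate 1 gave -1.36, leaving out SD30_LD7 replicate 2 gave -0.22.

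Of the 33 trichome genes listed, 7 had a probe set and all 7 were tested, of which SIM was called, 1 of 7 against 15.0% of all probe sets. Among the 7 inhibitors of trichome fate, TRY was the 1 gene measured, so its close relatives such as CPC were not analysed here. SIM (SIAMESE), a cyclin-dependent kinase inhibitor that turns trichome precursors from division to endoreduplication, had 329.4 and 289.8 in SD30_LD7, against 437.3 and 550.9 in SD30. Both shifted arrays lay below both short day arrays. SIM fell by 0.67 ± 0.15 on the log2 scale (adjusted p = 0.011), a fold of 0.629 close in size to that of SPCH. This call was lost without SD30_LD7 replicate 2 (difference -0.58, adjusted p = 0.11), without SD30 replicate 2 (-0.50, 0.16), when dim probe sets were kept (-0.67, 0.23) and when the model had no trend (-0.67, 0.067). As background, SIM is also expressed outside trichomes, in other cells of the shoot apex.

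GIS (GLABROUS INFLORESCENCE STEMS), a zinc finger gene that promotes trichome formation on inflorescence organs downstream of gibberellin, had 164.3 and 239.3 in SD30_LD7, against 155.5 and 155.3 in SD30. Its log2 difference was 0.35 ± 0.22 (adjusted p = 0.34), with 0.080 without SD30_LD7 replicate 2 and 0.62 without SD30_LD7 replicate 1. AT1G68360, of the same list of initiation inputs, had 173.1 and 152.1 in SD30_LD7, against 190.6 and 212.0 in SD30 (-0.31 ± 0.19, adjusted p = 0.34). The genes of trichome growth and branching were bright and gave the narrowest intervals of the 12 genes tested. AN (ANGUSTIFOLIA), a regulator of cell shape and branch number, had a log2 difference of 0.09 with a 95% interval from -0.13 to 0.31. AT5G06700 (TRICHOME BIREFRINGENCE), a gene of cell wall deposition, had -0.01 (-0.29 to 0.27), a sign that turned with median centring. SPK1 (SPIKE1), a regulator of the cytoskeleton, had 0.26 (-0.03 to 0.54), with 0.085 without SD30 replicate 1 and 0.43 without SD30 replicate 2. Differences as large as a fall of 0.57 lay outside the intervals of these 3 genes.

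CR4 (ACR4), a receptor kinase gene expressed in the outer cell layer and needed for its organisation, was the 1 of 13 protoderm and cuticle genes with a probe set. It had 339.8 and 375.8 in SD30_LD7, against 299.7 and 266.5 in SD30. Both shifted arrays lay above both short day arrays, the opposite order to SPCH. The log2 difference was 0.34 ± 0.15 and did not pass (adjusted p = 0.17), with a 95% interval from 0.01 to 0.67. CR4 is 1 gene without a call, and the share of epidermal tissue in the apices was not tested.

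**Figure D4:**
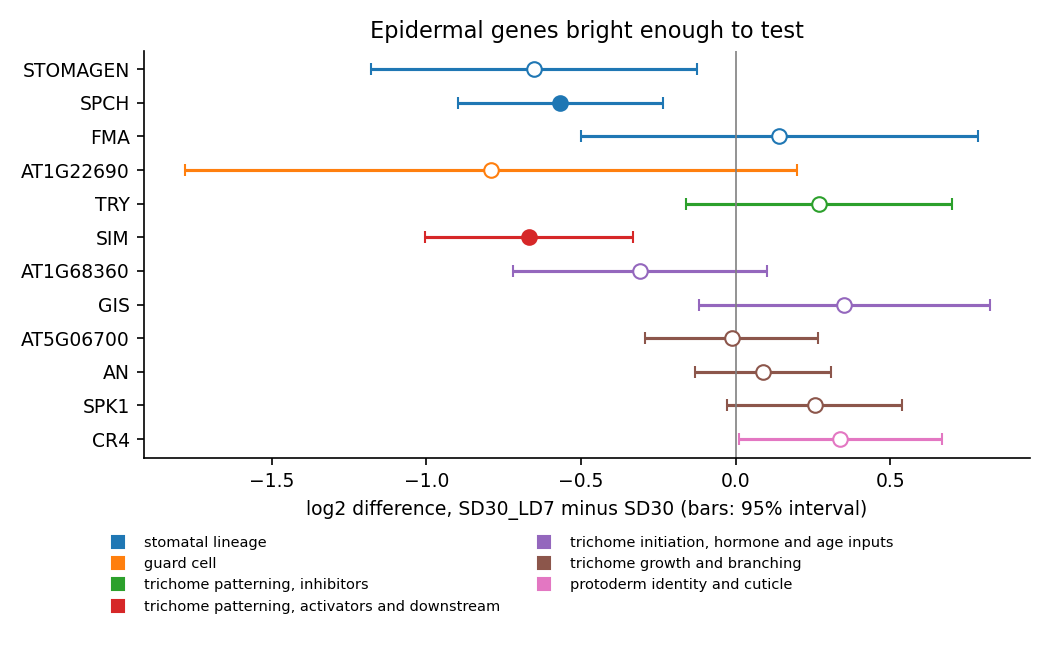
Log2 difference, SD30_LD7 minus SD30 (x axis), of the 12 epidermal genes bright enough to test, coloured by list, with 95% intervals; filled points had an adjusted p below 0.05. SPCH at -0.57 and SIM at -0.67 are the filled points, and 6 of the 12 lie on each side of 0.

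Leaf tissue is a further source of RNA in a dissected apex, as young primordia carry green cells. Of the 5 leaf mesophyll genes listed, 3 had a probe set, and their summed intensity was 6848 to 6983 in SD30_LD7 and 9035 to 11199 in SD30. The members did not move as 1 group. PORB, an enzyme gene of chlorophyll formation, fell by 0.79 ± 0.11 (adjusted p = 3.5e-04). RCA, the Rubisco activase gene, had -0.42 ± 0.15 and did not pass (adjusted p = 0.085), and LHCB4.3, a light harvesting antenna gene, rose by 1.72 ± 0.16 (adjusted p = 1.7e-05). RCA had -0.16 without SD30 replicate 1 (adjusted p = 0.54) and -0.68 without SD30 replicate 2 (0.041), and it passed with the replicate block (0.024). PORB and LHCB4.3 missed the threshold with no filter on dim probe sets (0.086 and 0.051). The part of leaf tissue in the SPCH difference was not tested. The vascular genes listed were not analysed here.

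The genes whose log2 values over the 4 arrays, centred on their own mean, came nearest to those of SPCH were ranked among 8768 others by root mean square distance. With 4 arrays many genes share any such pattern, so the ranks are a description. Because the genes were picked by these values, differences near those of SPCH and TRY follow from the ranking. The 5 nearest to SPCH were AT5G57040 at a distance of 0.010, AT5G24690 at 0.026, AT1G36070 at 0.030, the plastid-encoded photosystem I assembly gene ycf3 at 0.034 and AT2G17710 at 0.041. Their differences ran from -0.62 to -0.55. AT5G57040 had 212.4 and 225.8 in SD30_LD7, against 353.2 and 300.1 in SD30, with the same order of the arrays as SPCH. The 5 nearest to TRY were AT2G24330 at 0.0096, AT3G20180 at 0.011, AT1G55530 at 0.013, AT3G63220 at 0.015 and AT3G07180 at 0.016. Their differences ran from 0.25 to 0.28. None belonged to the epidermal lists, of which only 10 genes besides SPCH and TRY were tested.

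The SPCH call depended on the choice of processing. Several choices could not move the size of its difference from -0.57. Those were the replicate block, the other floors, the changes to the filter and the fit with no intensity trend. With 1 array left out or with a pseudocount, the sign of SPCH or TRY could not turn, because the groups did not overlap. Only quantile normalization and median centring could have turned it. In 13 alternatives the difference of SPCH lay between -0.68 and -0.46, and it was below 0 each time. It was called in 6 of them and missed the threshold in 7, with adjusted p from 0.023 with the replicate block to 0.20 without SD30 replicate 1. The difference of TRY lay between 0.19 and 0.39 in 12 alternatives, above 0 and without a call in each. Its highest value came with quantile normalization (adjusted p = 0.23). When the dimmest 50 percent were left out, TRY was too dim to test.

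**Figure D5:**
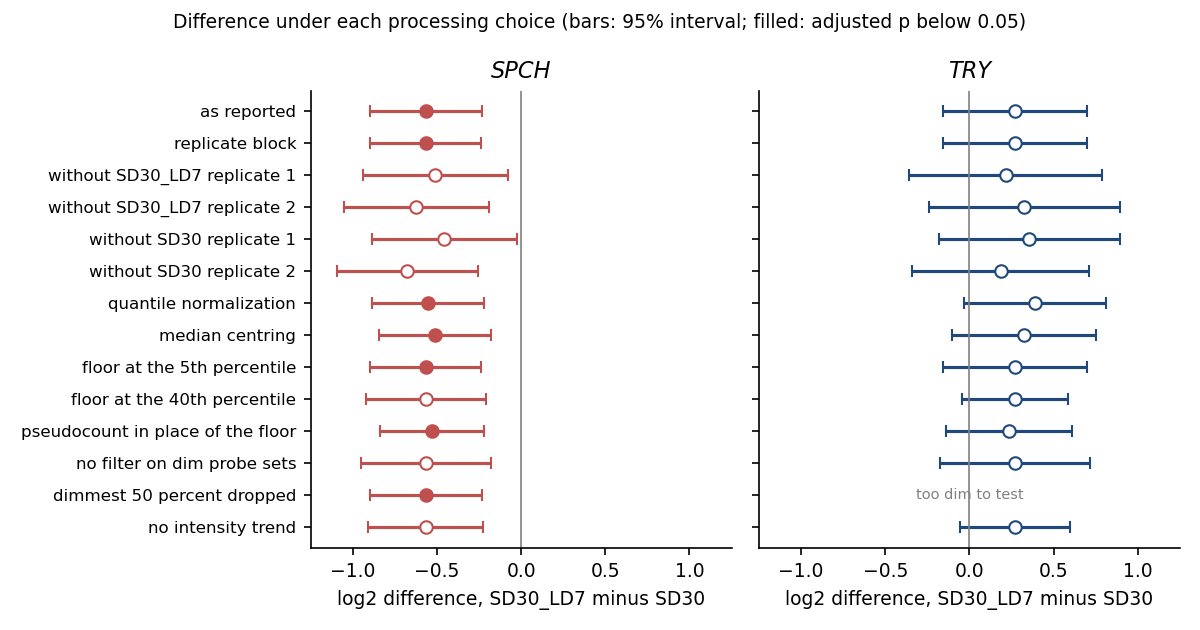
Log2 difference, SD30_LD7 minus SD30 (x axis), of SPCH (left panel) and TRY (right panel) under each processing choice (rows), with 95% intervals; filled points had an adjusted p below 0.05. SPCH stays between -0.68 and -0.46 with calls in some rows only, and TRY stays between 0.19 and 0.39 with no call.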

How the data were processed

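Total RNA of 4 apex samples was hybridised to 1 array each. The authors deposited 1 linear intensity per probe set and array. Their 2 percent trimmed means were 500.033 to 500.036, so arrays had been scaled to a common level; the software behind this is not stated in the labels. A table of the array's annotation paired 13513 of 22746 probe sets with 1 gene, 503 with several and 8730 with none named here; gene IDs linked these to current symbols in the TAIR10.1 table, where 77 of the 13513 had no entry. Intensities below 23.5, the 20th percentile, were raised to that floor before the log2 step. The dimmest 30 percent of probe sets and 64 control probe sets were left out. The groups were compared over 15922 probe sets in R 4.3.3 with limma 3.58.1, by a two-sided moderated test (eBayes, intensity trend) with 2 residual and 9.90 prior degrees of freedom. Benjamini-Hochberg adjustment ran over all of them with a threshold of 0.05, and every adjusted p comes from this model or, where an alternative is named, from the same model refitted with that change. Intervals at 95% are not adjusted. The number of arrays limits the precision.

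The genes, the 103 genes of the lists (19 with a probe set) and the tests were chosen with earlier results of these data known. Named genes were SPCH, TRY, the list members with a probe set, the 10 annotated genes on either side, and the 5 genes nearest in pattern to each. Figures used matplotlib 3.10.9 in Python 3.11.15.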

Additional observations from a re-analysis of the deposited data

How the results depend on the processing

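The 2 arrays in a group limit the precision of every difference. Leaving out 1 array in turn gave -0.68 to -0.46 for SPCH, with no call, and 0.19 to 0.36 for TRY; the lone array of a group is assumed to vary like the other group. SPCH stayed at -0.57 but missed the threshold with the floor at the 40th percentile (adjusted p = 0.056), with no filter on dim probe sets (0.18) and with no intensity trend (0.065). Its SE was not larger in these fits, at 0.149, 0.114 and 0.136 in that order, against 0.152. The prior degrees of freedom were fewer, at 4.84, 0.716 and 3.49, against 9.90. It was called with the block, quantile normalization, median centring, the floor at the 5th percentile, a pseudocount, and the dimmest 50 percent dropped. The 2388 calls over all probe sets (1083 higher, 1305 lower) became 1058 to 1494 with 1 array left out, and numbered 152 with no filter, 1532 with no intensity trend and 2395 with median centring (1329 higher, 1066 lower). Of the epidermal genes, 0 to 3 were called across the alternatives, against 2. With the replicate number as a replicate block, SPCH had -0.57 (adjusted p = 0.023) and 2741 probe sets were called; the block added calls for STOMAGEN and RCA. The numbers were not taken as pairs, because the labels do not state that they pair the samples. Same-numbered arrays deviated together at a correlation of 0.047, which alone does not exclude pairing. Signs turned for genes without a call: FMA (-0.030 to 0.31 with 1 array left out), AT5G06700 (-0.13 to 0.10, and 0.042 with median centring), CLV3 (-0.37 to 0.13, and 0.071 with quantile normalization), AT5G53150 (-0.28 to 0.28, 0.015 with quantile normalization and 0.054 with median centring) and AT5G53310 (-0.16 to 0.017). Each gene has 1 probe set, so the alternative of a further probe set could not be run.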
